A study of Mus musculus with 26 samples.

Results

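Among 13 single retinal cells in which Cre recombinase had been switched on to delete Notch1, some arrays still carried a bright signal for Notch1 messenger RNA and some did not. A cell was called Notch1-positive when the Notch1 probe set stood at or above the 90th percentile of the signals on that cell's own array, leaving out array controls. By this rule 8 of the 13 cells were Notch1-positive and 5 were Notch1-negative, out of 26 cells in the whole series. The members were chosen by the signal of the Notch1 probe set, which is therefore given as a description.

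All 26 cells came from C57BL/6 background mice with both copies of Notch1 floxed. The N1-CKO cells had received a plasmid with Cre under the ubiquitous CAG promoter and the CALNL-GFP reporter, which gives GFP after Cre has acted. The WT cells carried the same floxed alleles but had received CAG:GFP without Cre. Plasmids were electroporated at postnatal day 0 and the retinas went on developing in the animal until postnatal day 3, when single GFP-positive cells were picked, their messenger RNA was copied and amplified, and each was placed on its own array. GFP in an N1-CKO cell reports that Cre was active in it, not that both Notch1 alleles were recombined. The labels name no animal or litter, so the cells on each side are treated as 1 sample and no test was made, and each SD gives the scatter among cells.

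Notch1 is a transmembrane receptor that is cleaved when a ligand on a neighbouring cell binds it. The freed intracellular part enters the nucleus, joins the DNA-binding protein Rbpj and Mastermind proteins, and activates repressors of the Hes and Hey families, which hold back proneural genes. In the newborn mouse retina this signal keeps progenitor cells dividing, and its loss is known to favour photoreceptor production.

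The Notch1 signal separated the cells by a wide margin. Notch1-positive cells ranged from 4892 to 39239 in the linear units of the MAS5 algorithm, with a median of 10275, whereas the Notch1-negative cells 5, 6, 11, 12 and 13 had 134, 15.9, 20.2, 28.2 and 51.3. Just inside the threshold, Notch1-positive cell 2 lay at percentile 95.3 of its array, and just outside it Notch1-negative cell 5 lay at percentile 83.8, where the threshold signal was 825. Where this probe set lies relative to the floxed part of the gene is something the sources used here do not give, so its signal checks nothing about recombination. A second Notch1 probe set reached the 90th percentile of the array in cells 7 and 9 alone, both of them Notch1-positive. The share of positive cells was 61.5% in N1-CKO cells (8 of 13, exact Clopper-Pearson 95% interval 31.6 to 86.1) and 76.9% in WT cells (10 of 13, 46.2 to 94.96), with wide and overlapping intervals that cover counting error only.

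The sides also differed in the array controls for cDNA length. The Gapdh 3'/5' ratio, which grows as cDNA fails to reach the 5' end, had a median of 2.59 in Notch1-positive cells (1.46 to 5.16) and 7.05 in Notch1-negative cells (1.53 to 245). Its values in Notch1-positive cells 1, 2, 3, 4, 7, 8, 9 and 10 were 2.72, 2.65, 1.46, 5.16, 2.67, 1.97, 2.53 and 2.46, against 245, 7.05, 1.53, 30.3 and 3.43 in Notch1-negative cells 5, 6, 11, 12 and 13. Thus 1 of 8 Notch1-positive cells and 4 of 5 Notch1-negative cells exceeded 3. For Actb, the median 3'/5' ratio was 2.24 in Notch1-positive cells and 12.7 in Notch1-negative cells. The 18S ribosomal RNA control divided the arrays into a high set, holding Notch1-positive cells 3, 8, 9 and 10 and Notch1-negative cell 11, and a low set, holding Notch1-positive cells 1, 2, 4 and 7 and Notch1-negative cells 5, 6, 12 and 13. The part of cDNA length in the differences below was not tested. Values within the low 18S set and among the 11 cells whose Gapdh ratio was 10 or less (8 Notch1-positive cells and Notch1-negative cells 6, 11 and 13) are given beside the gene groups.

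**Figure D1:**
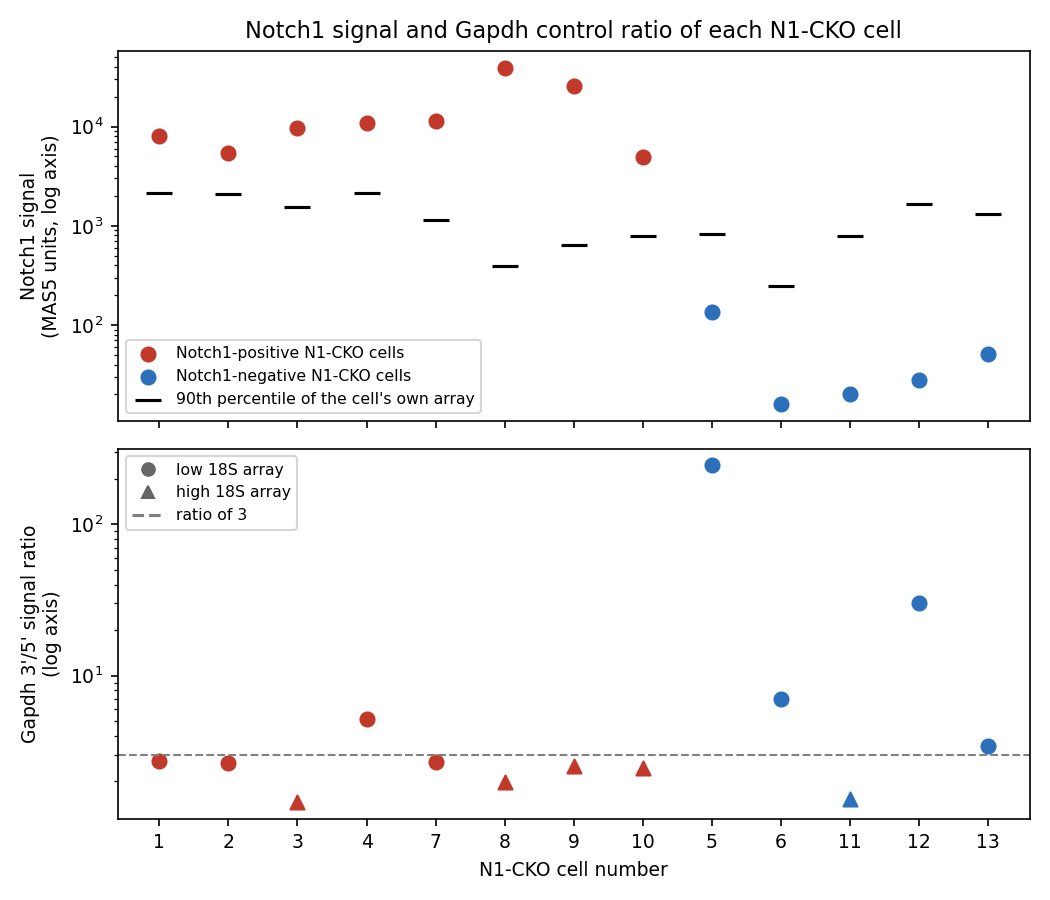
Upper panel: Notch1 signal (MAS5 units, log axis) in each of the 13 N1-CKO cells, with a bar at the 90th percentile of its array. Lower panel: Gapdh 3'/5' signal ratio (log axis), with the 18S set shown by the marker and a dashed line at 3. The 8 Notch1-positive cells lie above their bars and, apart from cell 4 at 5.16, under the dashed line, while 4 of the 5 Notch1-negative cells lie above it.

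Brightness and similarity of the arrays did not separate the sides. At a common signal threshold, the number of bright probe sets ranged from 2800 to 5670 in Notch1-positive cells and from 3557 to 4830 in Notch1-negative cells. Log2 signals of a Notch1-positive and a Notch1-negative cell correlated across probe sets with a median r of 0.48 over 40 pairs, against 0.41 over 28 pairs of Notch1-positive cells and 0.47 over 10 pairs of Notch1-negative cells. These correlations run across genes of amplified single-cell cDNA and describe the arrays only.

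Genes were compared where they were detected, meaning at or above the 90th percentile of the own array, in at least 2 of the 13 cells. This left 6473 genes besides Notch1. The threshold signal ran from 245 in cell 6 to 2164 in cell 1, so an equal signal can count as detected in 1 cell and not in another. Differences are mean log2 signals of Notch1-positive minus Notch1-negative cells, after raising low signals to a floor of 4.65 on the log2 scale. Of these genes, 1154 (17.8%) were at least 4-fold, or 2 log2 units, higher in Notch1-positive cells and 645 (9.96%) at least 4-fold lower, and the median of all differences was 0.25. Of the 1154, 544 were detected in no Notch1-negative cell, and of the 645, 167 in no Notch1-positive cell. Counting any size of difference, 55.8% were higher and 44.2% lower. The tilt towards higher values depended on how arrays were scaled. With each array scaled to its own 90th percentile the counts were 864 higher and 960 lower, and with quantile normalization 808 higher and 827 lower, as the median of all genes moved to -0.14 and -0.08. The groups did not overlap at all for 10 genes (0.154%) above and 6 genes (0.0927%) below.

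Genes of the Notch pathway ran in both directions within each of its 3 lists. The list medians were 1.03 for receptors and complex, 1.18 for targets and 1.70 for ligands and processing, beside 0.25 for all genes. Those of receptors and targets turned negative in the high 18S set. Of the receptor and nuclear complex genes other than Notch1, Notch2, Rbpj and Maml1 reached the detection limit, whereas Notch3, Notch4 and Maml2 were detected in 0 of the 13 cells. None of the 3 differed by 4-fold. Notch2, a second receptor of the family, was detected in 2 of 8 Notch1-positive cells and 1 of 5 Notch1-negative cells, with a difference of 1.62. Rbpj, the DNA-binding partner of cleaved Notch, differed by -0.16, and another probe set of it by 1.07 in the other direction. Maml1, a Mastermind coactivator, differed by 1.03.

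Of 12 Notch target genes and Id factors, 6 could be compared, 4 of them higher and 2 lower, beside 55.8% of all genes that were higher. By 4-fold, 1 was higher and 1 lower, beside 17.8% and 9.96% of all genes. The list median was 1.18 beside 0.25 for all genes. This became 0.59 without cell 5 or cell 6, 0.63 without cell 3, 0.66 without cell 13, 0.78 without cell 2 and 0.20 with the Notch1 threshold at the 80th percentile, which moves cell 5 to the positive side. Hes1, a classical Notch target, was detected in 1 Notch1-positive cell and no Notch1-negative cell, Nrarp likewise, and Hey1, Hey2, Id2 and Id4 in none of the 13. Hes5, the other main retinal Hes target, ranged from 4.65 to 12.81 with a median of 10.71 in Notch1-positive cells, and its log2 signals in Notch1-negative cells 5, 6, 11, 12 and 13 were 4.65, 12.37, 4.65, 10.93 and 4.65. It was thus detected in 4 of 8 Notch1-positive and 2 of 5 Notch1-negative cells, both sides held cells at the floor, and the difference of 1.73 was smaller than the SD within either side (3.50 and 3.87). Id1, an inhibitor of proneural bHLH factors, was the 1 member at least 4-fold higher, at 9.01 ± 3.34 in Notch1-positive cells and 5.81 ± 1.66 in Notch1-negative cells (SD, n = 8 and 5). Dtx1, a Deltex ubiquitin ligase that acts on Notch and is itself a Notch target in other cells, was the 1 member at least 4-fold lower. Its log2 signal ranged from 4.65 to 12.19 with a median of 6.41 in Notch1-positive cells, against 12.58, 13.47, 8.37, 11.11 and 11.87 in Notch1-negative cells 5, 6, 11, 12 and 13. Dtx1 was detected in 2 of 8 Notch1-positive cells and in 4 of 5 Notch1-negative cells, although another of its probe sets, detected in no N1-CKO cell, differed by 0.72 the other way. Heyl, Dtx4 and Id3 differed by -0.39, 1.49 and 0.86. The list median was 0.98 within the low 18S set and 1.14 at a Gapdh ratio of at most 10, but -1.19 within the high 18S set, where 4 Notch1-positive cells are set against Notch1-negative cell 11 alone.

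Of 12 ligand, fringe and processing genes of the pathway that were compared, 8 were higher and 4 lower in Notch1-positive cells, beside 55.8% of all genes that were higher. Of the 12, 4 passed 4-fold upward and none downward, beside 17.8% and 9.96% of all genes. The median was 1.70 (1.56 within the low 18S set, 1.35 at a Gapdh ratio of at most 10, 1.05 without cell 13, 0.77 with all probe sets averaged and 0.47 in the high 18S set). Psen2, a catalytic subunit of the gamma-secretase that cleaves Notch, was detected in 3 of 8 Notch1-positive cells and 0 of 5 Notch1-negative cells, where all signals lay within 0.1 of the floor. Mfng and Rfng, which modify the sugars on Notch receptors, differed by 3.03 and 2.26, and Psenen, another gamma-secretase subunit, by 2.07. Of these, Rfng was under 4-fold without cell 6 or without cell 11 (1.21 each), and Psenen without cell 5 or cell 13 (1.22 and 0.72). Of the ligands, Dll1 and Dll3 differed by 1.81 and 0.41 and Dll4 by -1.78.

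Replication genes were detected in the largest numbers in Notch1-positive cells 2, 3 and 4, and mitotic genes in Notch1-positive cells 1, 2 and 3. Of 16 G1/S and DNA replication genes compared, 14 were higher and 2 lower, 8 of them by 4-fold upward, with a median of 2.00 (2.49 within the low 18S set, 1.86 at a Gapdh ratio of at most 10, 1.30 without cell 3 and 1.78 over all 27 genes on the array). Of those 8 genes, 6 were detected in Notch1-positive cells only and so entered the comparison through that side. The shares over all genes were 55.8% higher and 17.8% past 4-fold upward. Notch1-positive cells 1, 2, 3 and 4 had 5, 11, 11 and 15 genes of this list detected, and Notch1-positive cells 7, 8, 9 and 10 had 1, 1, 3 and 2. Notch1-negative cells 5, 6, 11, 12 and 13 had 3, 2, 6, 2 and 1. Notch1-positive cells 1, 7, 8, 9 and 10 therefore lay within the range of the Notch1-negative cells. Mcm2, a subunit of the replicative helicase, was detected in 5 of 8 Notch1-positive cells (median 11.49, 4.65 to 12.86), whereas 4 Notch1-negative cells were at the floor and cell 11 reached 13.98. Its difference of 3.33 became 5.20 without cell 11. Pcna, the sliding clamp of DNA replication, averaged 11.47 ± 3.24 in Notch1-positive cells and 8.52 ± 4.53 in Notch1-negative cells (SD, n = 8 and 5). The licensing factor Cdt1 and the flap endonuclease Fen1 were each detected in 3 of 8 Notch1-positive cells and 0 of 5 Notch1-negative cells. Against Notch1-negative cell 11 alone, the 4 high 18S Notch1-positive cells gave a list median of -0.80.

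Of 20 G2/M and mitosis genes compared, 14 were higher and 6 lower in Notch1-positive cells, 6 of them by 4-fold upward, with a median of 1.62 (1.78 within the low 18S set and 1.36 over all 31 genes on the array), which became 0.95 without cell 1 and 1.01 without cell 3. Of those 6 genes, 5 were likewise detected in Notch1-positive cells only. Over all genes compared, 55.8% were higher and 17.8% passed 4-fold upward. Notch1-positive cells 1, 2 and 3 had 12, 10 and 17 of these genes detected, whereas the other 5 Notch1-positive cells had 1 or 2 and the Notch1-negative cells 0 to 7. Cell 4, with 15 replication genes and 1 mitotic gene detected, differed in this from cells 1 to 3, which carried both groups. Cdca3, a trigger of mitotic entry, was detected in Notch1-positive cells 1, 2 and 3 only and in no Notch1-negative cell. Ccna2, the S and G2 phase cyclin, and the mitotic genes Kif23 and Cdca8 were each detected in 2 of 8 Notch1-positive cells and 0 of 5 Notch1-negative cells. Among G1 cyclins and kinases, 4 were compared, 2 of which (Cdk6 and Ccnd2) were detected in Notch1-positive cells only. The median of 1.39 became 0.79 without cell 3, 0.86 without cell 13, 0.056 with medians over cells and -0.80 in the high 18S set. Ccnd1, which drives progenitors through G1 in the retina, was detected in 7 of 8 Notch1-positive cells and 3 of 5 Notch1-negative cells, with a difference of 2.01 that became 0.86 without cell 5 and 0.76 without cell 13. Cdk4, its partner kinase, was bright on both sides, in 7 of 8 Notch1-positive cells and 5 of 5 Notch1-negative cells.

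Of 10 genes linked to cell cycle exit that were compared, 9 were higher and 1 lower in Notch1-positive cells, beside 55.8% of all genes that were higher. By 4-fold, 3 were higher, beside 17.8% of all genes, and 1 of the 3 (Rbl2) was detected in Notch1-positive cells only. Mxd4, a Max-binding antagonist of Myc, was 4-fold lower (-2.07, and -1.34 or -1.33 without cell 1 or cell 2), beside 9.96% of all genes. The median was 1.92 (2.06 within the low 18S set and 2.62 at a Gapdh ratio of at most 10) and became 1.09 without cell 6. Btg2, an antiproliferative gene switched on as neural progenitors make their last divisions, had log2 signals from 11.79 to 16.58 with a median of 14.35 in Notch1-positive cells. In Notch1-negative cells 5, 6, 11, 12 and 13 it had 14.08, 12.80, 10.18, 4.65 and 5.48. All 8 Notch1-positive cells carried it (100%, exact 95% interval 63.1 to 100), as did 3 of 5 Notch1-negative cells (60%, 14.7 to 94.7), and cells 12 and 13 were near the floor. The growth-arrest gene Gadd45a differed by 2.40, and the pocket protein gene Rbl2 was detected in 2 Notch1-positive cells and 0 Notch1-negative cells.

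**Figure D2:**
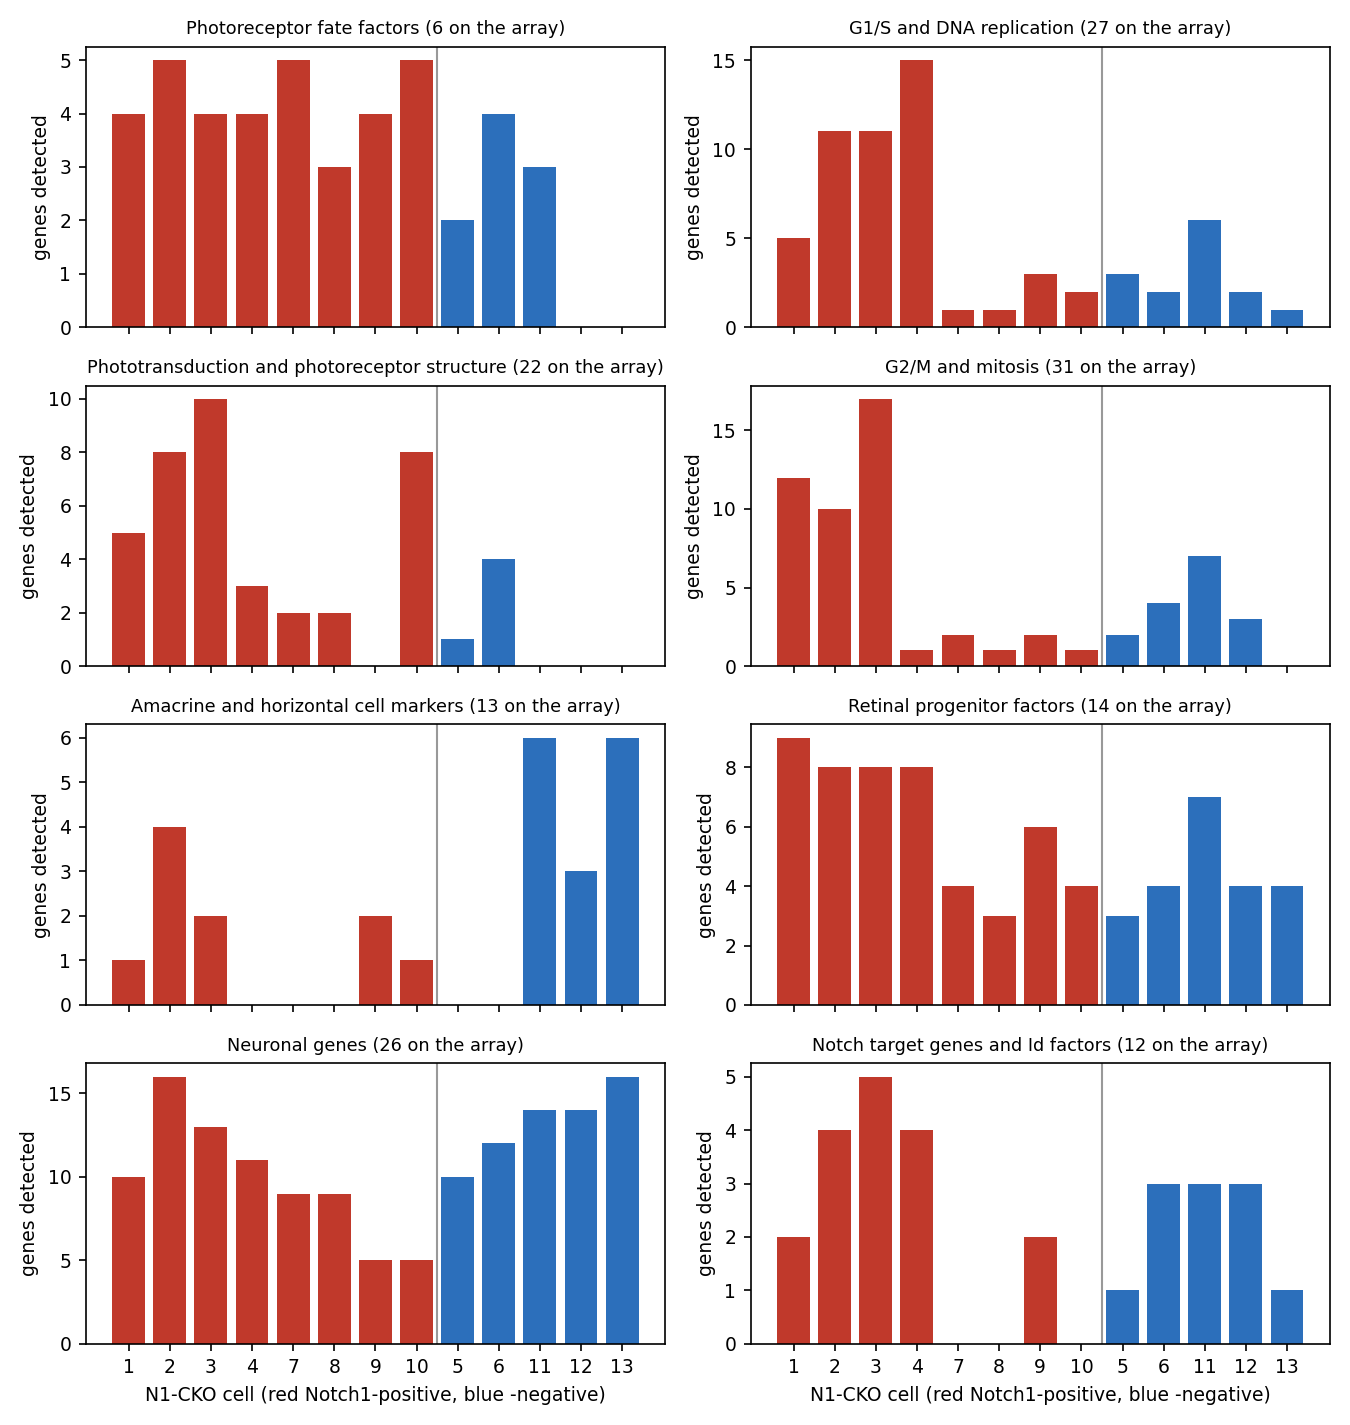
Number of genes of 8 lists detected (at or above the 90th percentile of the own array) in each N1-CKO cell, Notch1-positive cells at left in red and Notch1-negative cells at right in blue. Replication genes are most numerous in Notch1-positive cells 2, 3 and 4 (15 in cell 4) and mitotic genes in Notch1-positive cells 1, 2 and 3 (17 in cell 3), and amacrine and horizontal cell markers in Notch1-negative cells 11 and 13, with 6 each.

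The list median of general neuronal genes ran the other way. Of 21 genes compared, 17 were lower and 4 higher in Notch1-positive cells, beside 44.2% of all genes that were lower. By 4-fold, 5 were lower, beside 9.96% of all genes, and none higher. The median was -1.36 (-0.92 within the low 18S set, -1.40 at a Gapdh ratio of at most 10, -0.85 over all 26 genes on the array, -0.72 with all probe sets averaged and -3.15 in the high 18S set). Notch1-positive cells had 5 to 16 of the 26 genes on the array detected, with a median of 9.5. Notch1-negative cells had 10 to 16, with a median of 14, so that the ranges overlapped. Cells 11, 12 and 13 among them had 14, 14 and 16, and cells 5 and 6 had 10 and 12. Celf4, an RNA-binding protein of neurons, ranged from 4.65 to 10.59 with a median of 6.40 in Notch1-positive cells, against 8.62, 9.76, 12.60, 9.83 and 12.81 in Notch1-negative cells 5, 6, 11, 12 and 13. It was detected in 1 of 8 Notch1-positive cells and in Notch1-negative cells 6, 11 and 13. Cell 12, at 9.83, lay under its own threshold signal of 1647, whereas cell 6, at 9.76, lay over its threshold signal of 245. Ina, the neurofilament protein alpha-internexin, ranged from 4.65 to 11.50 with a median of 4.65 in Notch1-positive cells, against 13.43, 11.68 and 13.58 in Notch1-negative cells 11, 12 and 13, 5.34 in cell 6 and the floor in cell 5. Map2, a dendritic microtubule protein, averaged 9.15 ± 3.60 in Notch1-positive cells and 12.21 ± 3.85 in Notch1-negative cells (SD, n = 8 and 5), and another probe set of it, detected in no N1-CKO cell, differed by 1.04 the other way. Its difference of -3.06 became -4.76 without cell 5. Tubb3, the tubulin of young neurons, had a median of 11.84 in Notch1-positive cells (4.65 to 14.86), against 15.63, 6.74, 14.86, 14.67 and 15.81 in Notch1-negative cells 5, 6, 11, 12 and 13. Its difference of -2.62 became -4.32 without cell 6 and -1.73 without Notch1-positive cell 7. The synaptic genes Snap25 and Vamp2 differed by -1.36 and -1.88 but were detected in 6 of 8 Notch1-positive cells and in 4 and 5 of 5 Notch1-negative cells.

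The highest list medians were those of photoreceptor genes. Of the 5 photoreceptor fate factors compared, all 5 were higher in Notch1-positive cells, 4 of them by 4-fold, beside 55.8% and 17.8% of all genes. The median was 4.47 (3.87 within the low 18S set and 3.06 at a Gapdh ratio of at most 10) beside 0.25 for all genes. Where cell 11, which carried 3 of these factors, is the 1 Notch1-negative cell, the median was 0.84 (high 18S set) and 0.87 (Gapdh ratio up to 3). Otx2, which starts the photoreceptor programme, had log2 signals from 12.57 to 16.90 with a median of 13.88 in Notch1-positive cells. In Notch1-negative cells 5, 6, 11, 12 and 13 it had 14.05, 13.88, 12.27, 4.65 and 5.05. Crx, its downstream factor that switches on photoreceptor genes, ranged from 12.34 to 15.39 with a median of 13.92 in Notch1-positive cells, against 9.53, 14.98, 13.05, 4.65 and 4.65 in the same Notch1-negative cells. Thus all 8 Notch1-positive cells carried both factors, and so did Notch1-negative cells 6 and 11. Their levels lay within the Notch1-positive ranges, except Otx2 in cell 11, which lay just under the lowest Notch1-positive cell. Cell 5 carried Otx2, with Crx just under its detection threshold, and cells 12 and 13 carried neither. Prdm1, which secures photoreceptor over bipolar identity, was detected in 8 of 8 Notch1-positive cells (median 13.58, 11.24 to 16.34) and in Notch1-negative cells 5 and 6, at 14.62 and 15.46. Nrl, the rod-determining factor, was detected in 7 of 8 Notch1-positive cells and in Notch1-negative cells 6 and 11, at 14.79 and 12.91. Rxrg, a cone-enriched nuclear receptor, was detected in 3 of 8 Notch1-positive cells and 0 of 5 Notch1-negative cells, and Thrb in none. The means for Crx were 13.95 ± 0.92 in Notch1-positive cells and 9.37 ± 4.74 in Notch1-negative cells (SD, n = 8 and 5), and the width of the second SD reflects the division of the Notch1-negative cells just described.

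Of 22 phototransduction and photoreceptor structure genes on the array, 9 could be compared and all 9 were higher in Notch1-positive cells, 6 by 4-fold, with a median of 3.48 (3.53 within the low 18S set and 3.70 at a Gapdh ratio of at most 10). Of these 9 genes, 5 were detected in Notch1-positive cells only and so entered through that side, and over all 22 genes on the array the median was 1.27. Among all genes compared, 55.8% were higher and 17.8% by 4-fold. A further 10 genes of this list, among them Pde6b, Rcvrn, Prph2 and Arr3, were detected in 0 of the 13 cells. Rom1, a disc rim protein, had log2 signals from 4.65 to 16.23 with a median of 11.68 in Notch1-positive cells, against 4.65, 7.31, 5.06, 4.65 and 4.65 in Notch1-negative cells 5, 6, 11, 12 and 13. It was detected in 5 of 8 Notch1-positive cells and in no Notch1-negative cell. Its mean floored signal was at least 2.24-fold higher in Notch1-positive cells, with cells below the floor counted at 4.65. That bound was set from the detection thresholds of the Notch1-negative arrays. Rbp3, the retinoid carrier of the space around photoreceptors, was detected in 6 of 8 Notch1-positive cells (median 12.36) and in Notch1-negative cell 6 alone, at 14.67. Pdc, phosducin, was detected in Notch1-positive cells 1, 2, 3 and 10 and in no Notch1-negative cell. Gnb3, a transducin subunit of cones and bipolar cells, was detected in 7 of 8 Notch1-positive cells and in Notch1-negative cells 5 and 6. Expression of this group was uneven among the Notch1-positive cells, in which 5, 8, 10, 3, 2, 2, 0 and 8 genes were detected in cells 1, 2, 3, 4, 7, 8, 9 and 10. Notch1-negative cells 5 and 6 had 1 and 4, and cells 11, 12 and 13 had 0.

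**Figure D3:**
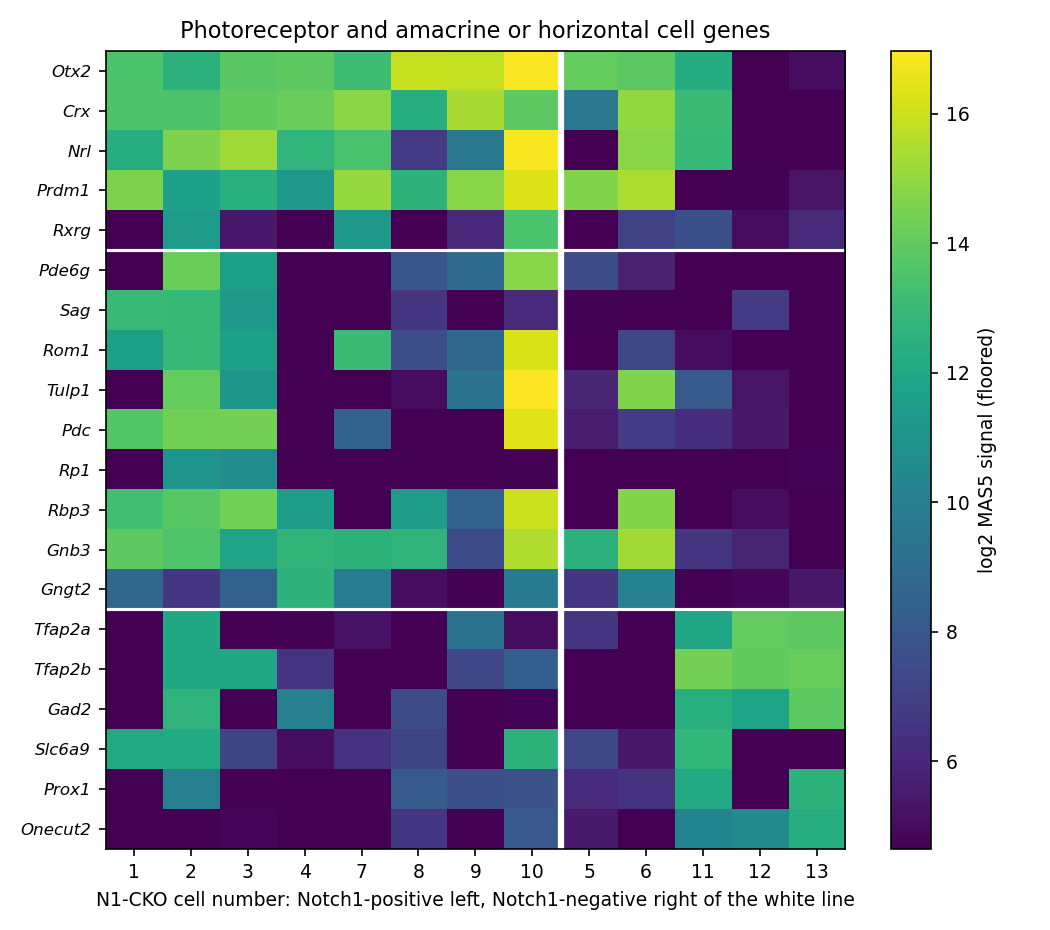
Log2 MAS5 signal, floored at 4.65, of the compared photoreceptor fate factors (top block), phototransduction and photoreceptor structure genes (middle block) and amacrine and horizontal cell markers (bottom block) in each N1-CKO cell, Notch1-positive cells left of the white line and Notch1-negative cells right of it. Otx2 and Crx are bright in all 8 Notch1-positive cells and dark in Notch1-negative cells 12 and 13, and Tfap2b is bright in Notch1-negative cells 11, 12 and 13.

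Amacrine and horizontal cell markers had the lowest list median. Of 6 compared, 5 were lower and 1 higher in Notch1-positive cells, beside 44.2% of all genes that were lower. By 4-fold, 4 were lower, beside 9.96% of all genes. Of the 6, 2 were detected in Notch1-negative cells only and so entered through that side, 1 of them (Onecut2) among the 4. The median was -2.81 (-1.93 within the low 18S set and -3.66 at a Gapdh ratio of at most 10). It became -1.79 without cell 13, -6.28 with medians over cells, -1.18 with all probe sets averaged and -0.22 over all 13 markers on the array. Tfap2a and Tfap2b encode AP-2 factors of amacrine and horizontal cells. Tfap2a ranged from 4.65 to 12.05 with a median of 4.87 in Notch1-positive cells, against 6.56, 4.65, 11.88, 14.00 and 13.92 in Notch1-negative cells 5, 6, 11, 12 and 13. Tfap2b ranged from 4.65 to 12.02 with a median of 6.91 in Notch1-positive cells, against 4.65, 4.65, 14.40, 13.96 and 14.13 in the same Notch1-negative cells, with a difference of -2.85 that became -4.28 without cell 5 or cell 6 and -1.84 without cell 11. Notch1-positive cell 2 thus carried both at about 12, Notch1-negative cells 11, 12 and 13 carried both, and Notch1-negative cells 5 and 6 carried neither. Gad2, which makes the inhibitory transmitter GABA, was detected in Notch1-positive cell 2 and in the same 3 Notch1-negative cells, and its difference of -2.77 became -1.67 without cell 13. Onecut2, a factor of horizontal and other early neurons, was detected in 0 of 8 Notch1-positive cells and 2 of 5 Notch1-negative cells. Other probe sets of Tfap2a and Onecut2, each detected in 1 Notch1-positive cell and in no Notch1-negative cell, differed by 1.62 and 1.17 the other way. Summed over the 13 markers on the array, signals ran from 457 to 20738 in Notch1-positive cells and from 691 to 68807 in Notch1-negative cells. The part of cell type in the other differences was not tested. Notch1-negative cells 11, 12 and 13 carried AP-2 factors and cells 5 and 6 did not, while cell 11 also carried 3 photoreceptor fate factors. With so few cells of mixed profile, cell type cannot be told apart from Notch1 status here.

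Proneural factors, the bHLH and zinc finger proteins that push progenitors towards neurons, had a median of 0.21. Of 6 compared, 3 were higher and 3 lower, beside 55.8% of all genes that were higher. Neurod4 and Insm1 passed 4-fold upward and Neurod2 downward, beside 17.8% and 9.96% of all genes. Neurod4, which acts in photoreceptor, bipolar and amacrine precursors, ranged from 11.02 to 16.66 with a median of 14.92 in Notch1-positive cells, against 15.05, 15.47, 4.65, 4.65 and 4.65 in Notch1-negative cells 5, 6, 11, 12 and 13. It was thus absent from the detected genes of exactly the 3 Notch1-negative cells with AP-2 factors. Neurod2, an amacrine-associated bHLH factor, was detected in no Notch1-positive cell and in Notch1-negative cells 11 and 13. Another probe set, detected in no N1-CKO cell, differed by 0.94 the other way. Neurod1 was detected in all 13 cells. Insm1, a zinc finger factor of newborn neurons, differed by 2.36, and by 3.63 without cell 6. Hes6, which counters Hes1, was detected in 7 of 8 Notch1-positive cells and 4 of 5 Notch1-negative cells.

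Progenitor and glial genes were mixed. Of 11 retinal progenitor factors compared, 9 were higher and 2 lower in Notch1-positive cells, beside 55.8% of all genes that were higher. By 4-fold, 4 were higher, beside 17.8% of all genes. Of those 4 genes, 2 were detected in Notch1-positive cells only and so entered the comparison through that side. The median was 0.88 (2.27 within the low 18S set and 0.75 at a Gapdh ratio of at most 10). Pax6, Sox2 and Six3, which maintain the progenitor state or eye identity, differed by less than 0.6 in size, at -0.19, 0.32 and 0.55. The secreted factor Fgf15 was detected in 3 of 8 Notch1-positive cells and 0 of 5 Notch1-negative cells, and Foxn4, a factor for amacrine and horizontal competence, in 2 and 0 cells. Lhx2, an eye field factor also needed for glial development, differed by 2.62 and by 4.28 without Notch1-negative cell 11, the 1 Notch1-negative cell that carried it, at 14.09. Without cell 10 the list median was 1.67 and without cell 6 it was 1.43, and in the high 18S set, with cell 11 as the 1 Notch1-negative cell, it was -2.40. Of 9 Müller glia markers compared, 5 were higher and 4 lower, beside 55.8% of all genes that were higher. By 4-fold, 3 were higher, beside 17.8% of all genes, and 1 of the 3 (Sox9) was detected in Notch1-positive cells only. The median of 0.87 changed sign between settings. It was 0.03 without cell 5, -0.48 with the Notch1 threshold at the 80th percentile, -0.39 at a Gapdh ratio of at most 10, -1.92 in the high 18S set and -2.49 at a Gapdh ratio of at most 3. Vim, the intermediate filament protein of progenitors and glia, ranged from 10.09 to 14.89 with a median of 14.36 in Notch1-positive cells, against 14.82, 4.65, 7.57, 4.96 and 4.74 in Notch1-negative cells 5, 6, 11, 12 and 13. It was detected in 8 of 8 Notch1-positive cells (100%, exact 95% interval 63.1 to 100) and in Notch1-negative cell 5 alone (20%, 0.51 to 71.6). Sox9, a progenitor and glial factor, was detected in 2 of 8 Notch1-positive cells, and all 5 Notch1-negative cells were at the floor. Glul and Dbi, enriched in mature Müller glia, were detected in 6 and 7 of 8 Notch1-positive cells and in all 5 Notch1-negative cells.

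Markers of cells other than retinal neurons and glia were near absent on both sides. Of 7 microglia and blood markers, 6 were detected in 0 cells and Hba-a1 in 1 Notch1-positive cell. None of 3 astrocyte and 5 pigment epithelium markers was detected in any cell. Of 7 endothelial and pericyte markers, only Kdr was detected, in 2 Notch1-positive cells and 1 Notch1-negative cell. Of bipolar and ganglion cell markers, Lhx4, a factor of bipolar and early photoreceptor cells, was detected in 4 Notch1-positive cells and Notch1-negative cell 6, and Ebf3 in 2 cells of each side. The 9 ribosomal protein genes compared were bright in nearly all cells and differed little, with a median of 0.10 and none past 4-fold. Another, Rps6, was detected in 1 of the 13 cells and was not compared.

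Beyond these lists, the largest positive differences, taken over genes that reached detection in 4 or more cells, are given with bounds where the gene was detected on 1 side only, because its exact difference, and its rank, then rest on the floor. A bound sets the floored mean of 1 side against the mean detection threshold of the other. It holds for floored signals only, since cells below the floor on the brighter side are raised to it. Dlc1 ranged from 7.64 to 16.01 in log2 signal with a median of 14.00 in Notch1-positive cells, against 5.23 in Notch1-negative cell 5 and 4.65 in the other 4. It was detected in 7 of 8 Notch1-positive cells (87.5%, exact 95% interval 47.4 to 99.7) and 0 of 5 Notch1-negative cells (0%, up to 52.2), and the groups did not overlap. These intervals cover counting error only and not the choice of Dlc1 for its large difference in the same cells. The mean was at least 12.5-fold higher in Notch1-positive cells, and with all probe sets of Dlc1 averaged the log2 difference was 3.26. Stk16, a membrane-associated protein kinase, was the other of these 12 genes with no overlap, at 8.06 to 12.77 in Notch1-positive cells and 4.65 to 5.79 in Notch1-negative cells, and was at least 3.10-fold higher. Qars, the glutaminyl-tRNA synthetase, Dnpep, an aminopeptidase, and Dpy30, a subunit of histone methyltransferase complexes, were each detected in 0 Notch1-negative cells and were at least 5.15-fold, 10.1-fold and 4.11-fold higher. Yipf5, a membrane protein of the early secretory pathway, was detected in all 8 Notch1-positive cells and, at 14.13, in Notch1-negative cell 6. The choline kinase Chkb and Shisa2 were each detected in 7 of 8 Notch1-positive cells and 1 of 5 Notch1-negative cells, with differences of 6.34 and 6.25. Across the alternative settings, the Shisa2 difference fell as low as 1.42. The ubiquinone biosynthesis enzyme Coq7, the phosphodiesterase Gdpd5, the ubiquitin ligase Rnf139 and the ciliary protein Cfap36 were detected in no Notch1-negative cell and were at least 2.32-fold, 3.75-fold, 3.28-fold and 1.93-fold higher.

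Among the 12 largest negative differences, Traf2, an adaptor of tumour necrosis factor receptors, was detected in 0 of 8 Notch1-positive cells (4.65 to 6.17) and in 4 of 5 Notch1-negative cells, at 12.84, 13.85, 11.96 and 12.78 in cells 5, 11, 12 and 13. It was at least 2.03-fold lower in Notch1-positive cells. Mapre2, a protein of growing microtubule ends, was detected in 2 of 8 Notch1-positive cells (4.65 to 14.20) and all 5 Notch1-negative cells (12.12 to 14.63). Stox2 and Srebf2 did not overlap between the sides. Stox2 reached at most 12.88 in Notch1-positive cells, against 14.56, 14.41, 13.76, 13.70 and 12.99 in Notch1-negative cells 5, 6, 11, 12 and 13. Srebf2, a regulator of cholesterol synthesis genes, reached at most 10.82 in Notch1-positive cells, against 11.05 to 12.69 in Notch1-negative cells. Averaging all probe sets reduced the Stox2 difference of -5.42 to -1.35 and the Srebf2 difference of -5.03 to -2.42. Chga, the dense-core granule protein chromogranin A, was at 4.65 to 7.77 in Notch1-positive cells, against 13.67, 11.85 and 13.88 in Notch1-negative cells 11, 12 and 13 and 6.90 and 8.40 in cells 5 and 6, at least 1.68-fold lower in Notch1-positive cells. Reep2 and Apc2, both enriched in neurons, differed by -5.24 and -5.04. Coa5 and Cox16, assembly factors of cytochrome c oxidase, differed by -5.23 and -5.21, with other probe sets of each differing by 0.68 and 0.54 the other way. Rnf227, Atp6ap2, an accessory protein of the proton pump, and BC005624 made up the rest, at -4.95, -4.93 and -6.10. Across the alternative settings, the difference shrank to as little as -0.95 for Apc2, -1.63 for Mapre2 and -1.55 for Cox16, and that of Coa5 turned to 2.54. Reep2 stayed at -4.12 or beyond and Traf2 at -5.08 or beyond.

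The 13 WT cells were split by the same Notch1 rule into 10 Notch1-positive and 3 Notch1-negative cells, and whether the genotypes differ in these contrasts was not tested. WT genes were compared where detected in at least 2 of the 13 WT cells, so the compared members of a list differ between the genotypes. In WT cells 20.7% of 6328 genes were at least 4-fold higher and 13.1% at least 4-fold lower in Notch1-positive cells, and 55.3% were higher and 44.7% lower by any amount. Photoreceptor fate factors had a median difference of 4.47 in N1-CKO cells and 3.73 in WT cells, with 4 of 4 compared WT genes higher. Amacrine and horizontal cell markers had -2.81 in N1-CKO cells and -2.73 in WT cells. These list medians thus pointed the same way in both genotypes, but the WT values rest on 3 Notch1-negative cells. In WT cells 6, 7 and 8, 3, 0 and 0 photoreceptor fate factors were detected, against 0 to 4 in Notch1-positive WT cells. Of amacrine and horizontal cell markers, the same 3 cells had 1, 4 and 1, against 0 to 3. Neuronal genes had -1.36 over 21 genes in N1-CKO cells and 0.01 over 18 genes in WT cells. Of those 18, 9 were higher and 9 lower, with Map2 at -6.29 and Tubb3 at -2.68. Cell cycle exit genes had 1.92 over 10 genes and -0.05 over 12, and Notch ligands and processing genes 1.70 over 12 and -0.34 over 8. G1/S genes had 2.00 in N1-CKO cells and 0.49 in WT cells, where 10 of 20 were higher. Vim, with a difference of 5.91 in N1-CKO cells, had -0.34 in WT cells, where it was detected in 9 of 10 Notch1-positive and 3 of 3 Notch1-negative cells. The Gapdh ratio, with medians of 2.59 and 7.05 on the sides of the N1-CKO split, was 1.92 in Notch1-positive WT cells and 1.66 in Notch1-negative WT cells.

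**Figure D4:**
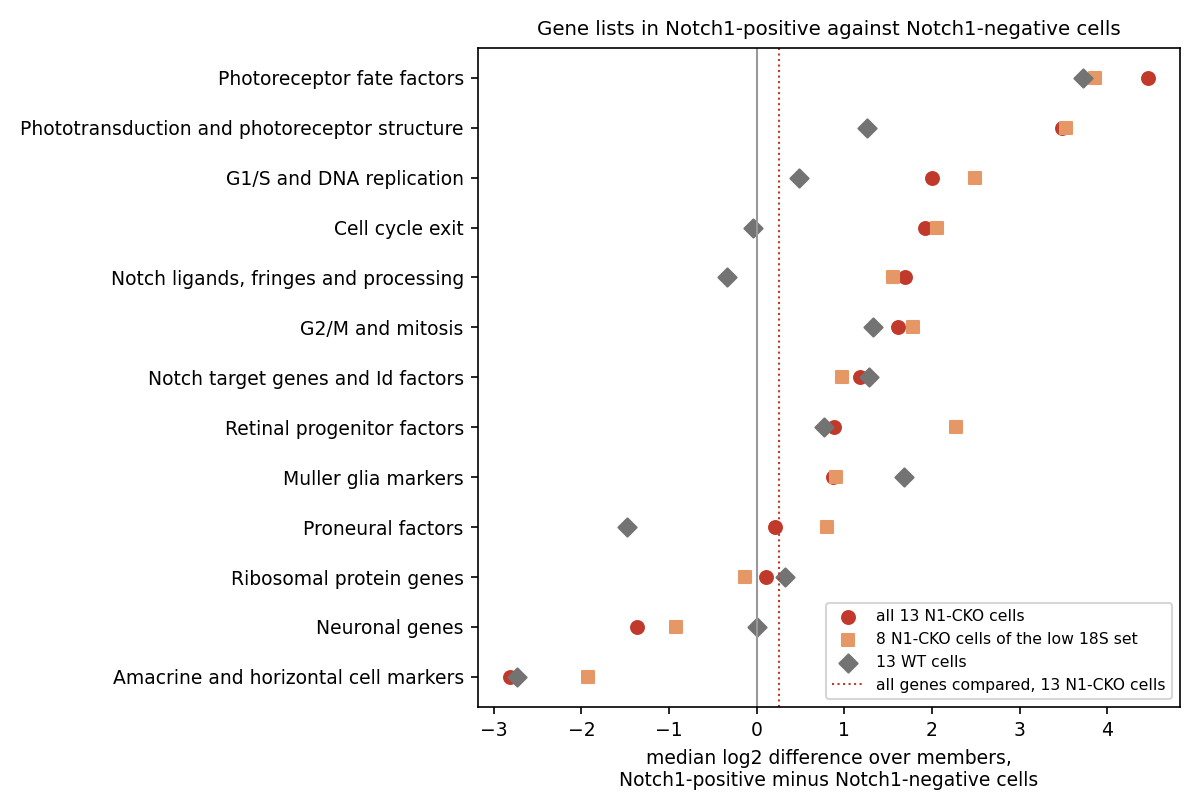
Median log2 difference of each gene list, Notch1-positive minus Notch1-negative cells, over all 13 N1-CKO cells (circles), the 8 low 18S arrays among them (squares) and the 13 WT cells (diamonds), with a dotted line at the median of all genes compared in N1-CKO cells, 0.25. Photoreceptor lists lie to the right and amacrine and horizontal cell markers to the left in all 3 sets. Neuronal genes lie at -1.36 in N1-CKO cells and at 0.01 in WT cells. Each WT median covers list members detected in at least 2 WT cells, so its members differ from those of the N1-CKO median.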

How the data were processed

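Array intensity on a linear scale was deposited by the authors, made with MAS5 per the submitters' processing notes. The sources used here do not give its version. Trimming 2% from either end left a mean of 500 for each array, so total RNA per cell cannot be read. MAS5 detection calls were not used.

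Of 45101 probe sets, 34945 that are not controls had 1 gene symbol in the platform annotation, giving 18193 genes. Of the rest, 932 had several symbols and 9224, controls included, were controls or unnamed, and both were left out. Symbols were checked in a RefSeq table of assembly GRCm38.p6, used for names only, and 0 changed. Signals below the pooled median, 25.02 (log2 of 4.65), were raised to it before log2 was computed. Detection meant reaching the 90th percentile of the cell's own array, 4504 probe sets per cell. A gene was read from its probe set of highest mean over the 26 cells. Of 95 genes named, 13 had another probe set differing by over 0.5 the other way.

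The members and the 23 lists (303 genes, of which 282 were measured, 159 compared and 21 not analysed here) were chosen with earlier results of these data known. Of genes detected in 4 or more of 13 cells whose detected share differed the same way, the 12 with the largest positive and the 12 with the largest negative difference are named, every Notch receptor, complex or target gene detected in at least 2 cells, and up to 4 members of each other list with the largest differences. Other names were added after their values were seen. A difference mixes how many cells carry a transcript with its level in them. Bounds on folds set the floored mean of 1 side against the mean detection threshold of the other, and hold for floored signals only. Intervals on shares are exact Clopper-Pearson 95% intervals for counting error only, and the number of arrays limits the precision. They do not cover the choice of genes by their difference in the same cells. Since each side counts as 1 sample, no test was made. Alternatives covered the floor, probe sets, medians, scaling, the Notch1 threshold, 18S sets, Gapdh ratios of at most 3 and (added after seeing the data) at most 10, the detection filter and leaving out each cell. The computation was tested on simulated data. Python 3.11.15, numpy 2.4.6, pandas 2.3.3, scipy 1.17.1 and matplotlib 3.10.9 were used.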

Additional observations from a re-analysis of the deposited data

Results flagged for a closer look

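Of 203 values examined for a cell far from the others of its side, 36 had a highest or lowest cell whose gap to the next was large for the spread of the side. Chance flags about 1 in 20 groups of normally distributed values, but many of these signals sit at the floor, so that 1 detected cell among undetected ones stands apart by construction and the number cannot be read against that share. Of the 95 named genes, none ran in opposite directions in every cell of the 2 genotypes. Among them, Dlc1, Stk16, Stox2 and Srebf2 alone had no overlap between the N1-CKO sides, so the check was open to these genes only. No explanation was tested.

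Among Notch1-positive cells, cell 4 had the highest Gapdh and Actb ratios, 5.16 and 18.3, and cell 8 the highest 18S signal, 93363. Among Notch1-negative cells, cell 5 had the highest Gapdh ratio, 245, cell 12 the highest Actb ratio, 2351, and cell 11 the highest 18S signal, 35478.

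Among Notch1-positive cells, several log2 signals stood apart. Cell 10 was lowest for Rfng (4.65), Cdk4 (8.10), Egr1 (4.65), an immediate early gene, and Rps2 (8.64), a ribosomal protein gene. Cell 8 was lowest for Ccnd1 (4.65) and cell 9 for Gnb3 (7.44). Cell 2 was highest for Cox16 (11.95) and Slc1a3 (11.05), a glial glutamate transporter, and cell 3 for Rnf227 (11.08) and Heyl (13.36).

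Among Notch1-negative cells, cell 11 was highest for the mean log2 signal of G1/S genes (9.17), Shisa2 (10.71), Dtx4 (13.33) and Mcm2 (13.98), and lowest for BC005624 (10.61) and Coa5 (4.65). Cell 6 was highest for Yipf5 (14.13), Notch2 (11.26), Rbp3 (14.67) and Lhx4 (13.16), and lowest for Traf2 (4.65) and Tubb3 (6.74). Cell 5 was highest for Chkb (11.53), Mfng (11.39) and Vim (14.82), and lowest for Rnf227 (4.65) and Map2 (5.42). Cell 13 was lowest for Cox16 (7.29) and Hes6 (4.65), and highest for Kdr (13.35), a receptor of endothelial and some progenitor cells.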

How the results depend on the processing

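No paired analysis was possible because the comparison lies within the N1-CKO cells and comes from no test. The lists of photoreceptor fate factors, phototransduction genes, amacrine and horizontal cell markers, neuronal genes, cell cycle exit, G2/M genes and Notch ligands kept their sign in all 28 settings run. The 95th percentile and any Notch1 probe set gave the same 8 and 5 cells, and the 80th percentile moved cell 5 to the positive side. The high 18S set (Notch1-positive cells 3, 8, 9 and 10) and a Gapdh ratio of at most 3 (7 Notch1-positive cells, without cell 4) leave cell 11 as the 1 Notch1-negative cell, so both sides change at once and the cause of a move was not tested.

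Counts higher and lower were 657 and 311 with all probe sets averaged, 1742 and 976 with medians over cells, 1964 and 1872 in the high 18S set, and 2008 and 1769 at a Gapdh ratio of at most 3. Leaving out 1 cell gave 1116 to 1349 higher and 641 to 864 lower.

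In the high 18S set, medians were -0.31 for Notch receptors, -1.19 for Notch targets, -0.80 for G1/S genes, -0.80 for G1 cyclins, -3.15 for neuronal genes, 0.84 for photoreceptor fate factors, -2.40 for progenitor factors, -2.72 for immediate early genes and -2.08 for apoptosis genes. Of the named genes past 4-fold, those reversed there were Coa5 (2.54), Psenen (-2.94), Mcm2 (-4.61), Pcna (-2.76), Cdt1 (-1.10), Fen1 (-0.49), Ccnd1 (-3.43), Mxd4 (1.68), Nrl (-0.82), Lhx2 (-4.15), Zfp36l1 (-3.24), Dkk3 (-0.17) and Jun (-3.39). At a Gapdh ratio of at most 3, medians were -1.41 for Notch targets, -0.57 for G1/S genes, -0.90 for G1 cyclins, -2.70 for neuronal genes, 0.87 for photoreceptor fate factors, -1.77 for progenitor factors, -1.83 for immediate early genes and -1.47 for apoptosis genes. Of the named genes past 4-fold, those reversed were Coa5 (1.54), Psenen (-2.21), Mcm2 (-4.55), Pcna (-2.71), Cdt1 (-1.58), Ccnd1 (-2.29), Mxd4 (0.49), Nrl (-0.24), Lhx2 (-4.35), Zfp36l1 (-2.15), Dkk3 (-0.061) and Jun (-3.62). Dtx4 and Mdm2, under 4-fold over all cells, turned to -5.75 and -5.53 in the high 18S set and to -5.73 and -4.96 at a Gapdh ratio of at most 3, and other genes under 4-fold also changed sign. At a Gapdh ratio of at most 10, apoptosis genes turned to -0.077.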

Other observations

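Stress and death genes outside the main groups also varied between the sides. Ddit3, a factor induced by stress in the endoplasmic reticulum, was detected in 5 of 8 Notch1-positive cells and 0 of 5 Notch1-negative cells, at least 1.34-fold higher, although another probe set of it ran the other way. Of 6 immediate early and stress genes compared, 5 were higher and 1 lower in Notch1-positive cells, beside 55.8% of all genes that were higher. By 4-fold, 2 were higher, beside 17.8% of all genes, and 1 of the 2 (Ddit3) was detected in Notch1-positive cells only. The list median was 1.44 beside 0.25 for all genes, but -2.72 in the high 18S set. Jun differed by 2.08, and by 3.41 without cell 11. Of 3 apoptosis genes compared, Bcl2l11, a death-promoting gene, was detected in 2 Notch1-positive cells and 0 Notch1-negative cells, and Mdm2 differed by 1.03 and Bcl2 by -0.91, with other probe sets of Mdm2 and Bcl2 differing the other way.

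Cell 2 stood out among the Notch1-positive cells, with 8 phototransduction genes, 4 amacrine and horizontal cell markers and 11 replication genes detected at once. Notch1-negative cell 11 likewise had 3 photoreceptor fate factors, 6 amacrine and horizontal cell markers and 6 replication genes. Whether more than 1 cell was in either tube was not tested.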
